A study of Mus musculus with 16 samples.

Results

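Genes that carry inorganic phosphate across the cell membrane, Slc34a2, Slc20a1, Slc20a2 and Xpr1, were followed in mouse liver under chronic ethanol feeding and under iodomethylcholine (IMC), a small molecule that inhibits the choline TMA lyase of gut bacteria. They are 4 of the 24082 Ensembl gene IDs in the deposited gene table. They were chosen by name, with their levels and their IMC and ethanol effects in these libraries already known. Their levels and log2 fold changes are therefore descriptions without a p-value. That Slc34a2 stands out among them, and among all genes, is part of why it was chosen.

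Liver RNA came from 16 female C57Bl6/J mice aged 9 to 11 weeks, with 1 library per mouse and 4 mice in each of 4 groups. The pair-fed groups received the liquid control diet with maltose dextrin in place of the calories of ethanol, with vehicle (Pair Vehicle) or with IMC (Pair IMC). The ethanol-fed groups received the chronic ethanol diet, raised to 6% vol/vol over a 25-day model, with vehicle (EtOH Vehicle) or with IMC (EtOH IMC). The dose of IMC was 0.06% wt/wt of the liquid diet. Mice given both IMC and ethanol are described as eating less and weighing less, which limits the EtOH IMC group as a test of ethanol at an equal intake. A body weight difference is also marked between pair-fed mice with and without IMC. The study asked whether blocking microbial production of trimethylamine alters the liver's response to ethanol.

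Each library held 9632659 to 12601199 reads on genes. All 9 hepatocyte markers examined, among them Alb and Apoa1, were present in every group. All values below are normalised read counts, rescaled so that the 16 libraries share 1 scale, and 1 read was worth 0.906 to 1.18 in the deposited units. Libraries are named by their number in the labels. Numbers 1 to 8 hold EtOH Vehicle and Pair IMC and numbers 9 to 16 hold Pair Vehicle and EtOH IMC, so every contrast of 2 groups along 1 factor also crosses this split, and the difference of the IMC effects between diets equals it. All ethanol-fed libraries have odd numbers and all pair-fed libraries even ones, so the ethanol contrasts also follow odd against even numbers. Neither the labels nor the methods describe the numbers as a batch. Neither division of the numbers can be told apart from the contrasts that follow it.

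Cells import phosphate through sodium-coupled carriers of 2 families. Slc34a2 encodes NaPi-IIb of the SLC34 family, which is best known for phosphate uptake in the small intestine and in alveolar type II cells of the lung. Slc20a1 and Slc20a2 encode PiT-1 and PiT-2 of the SLC20 family, which are found in most tissues and are usually described as housekeeping importers. Xpr1 encodes the phosphate exporter of vertebrate cells, whose SPX domain binds inositol pyrophosphates and so ties export to the phosphate state of the cell.

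In the GRCm38 build with GENCODE vM21, Slc34a2 (ENSMUSG00000029188) lies on chromosome 5 at 53038081 to 53071664 on the plus strand. Slc20a1 (ENSMUSG00000027397) lies on chromosome 2 at 129198764 to 129211616 on the plus strand. Slc20a2 (ENSMUSG00000037656) lies on chromosome 8 at 22476788 to 22569612 on the plus strand, and Xpr1 (ENSMUSG00000026469) on chromosome 1 at 155275701 to 155417415 on the minus strand. Exons of Slc20a2 overlap those of Smim19 on the opposite strand, which had at most 206 reads in a library. The kit was directional, but whether strand was used in counting is not given in the sources used here, so reads of that overlap could have been assigned to either gene.

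The upstream sequences of 3 members are shown so that the gene with the widest range of levels, Slc34a2, can be read beside members with steadier ones. The sequences are the 250 bases before the transcription start in RefSeq (GRCm38.p6), written 5′ to 3′ on the gene's strand, with capitals marking matches, on either strand to 4 promoter motifs spelled out after them.
Slc34a2, chr5:53049103-53049352, plus strand: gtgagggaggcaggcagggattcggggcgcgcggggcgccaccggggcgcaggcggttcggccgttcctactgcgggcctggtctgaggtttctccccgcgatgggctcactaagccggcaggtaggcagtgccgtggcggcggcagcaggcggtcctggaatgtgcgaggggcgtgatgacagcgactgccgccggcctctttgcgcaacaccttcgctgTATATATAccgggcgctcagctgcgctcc
Slc20a1, chr2:129198523-129198772, plus strand: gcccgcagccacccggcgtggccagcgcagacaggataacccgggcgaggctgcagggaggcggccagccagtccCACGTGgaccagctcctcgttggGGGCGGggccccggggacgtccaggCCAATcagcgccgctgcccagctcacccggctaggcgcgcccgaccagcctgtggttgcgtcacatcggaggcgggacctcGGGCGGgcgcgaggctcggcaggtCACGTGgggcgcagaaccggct
Xpr1, chr1:155417445-155417694, minus strand: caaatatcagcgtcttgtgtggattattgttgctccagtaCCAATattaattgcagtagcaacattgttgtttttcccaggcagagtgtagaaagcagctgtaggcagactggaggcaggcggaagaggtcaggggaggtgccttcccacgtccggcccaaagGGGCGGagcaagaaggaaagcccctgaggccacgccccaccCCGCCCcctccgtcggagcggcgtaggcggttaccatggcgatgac
Slc20a2 had no entry. Slc20a1 had a second entry, at chr2:129206846-129207095, which is not shown. The Slc34a2 window precedes the RefSeq start at 53049353. It lies inside the GENCODE span of the gene, which starts upstream at 53038081, and the sequence before that start is not shown. The span of Gm17182, an antisense gene with 0 reads in every library, overlaps part of this window.

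The Slc34a2 window was 69.6% G and C with 28 CpG dinucleotides. The Slc20a1 window was 75.2% G and C with 29 CpG, and the Xpr1 window 57.6% with 13 CpG. The median over 32851 RefSeq promoter windows of the same length was 52.4% G and C and 6 CpG, so all 3 windows lay above it. In Slc34a2 the capitals are 2 overlapping TATATA matches, at bases -29 to -24 and -27 to -22 from the start, and 15.6% of all windows held a match to TATATA or to the other form searched, TATAAA. The Slc20a1 window held an E-box (the letters CACGTG) at -175 to -170 and another at -22 to -17. It also held GC boxes, for which GGGCGG was searched, that began at -152 and -46, and a CCAAT match that began at -127. An E-box was present in 6.02% of all windows, a GC box in 32.7% and a CCAAT match in 33.8%. The Xpr1 window held a CCAAT match at -210 and GC boxes at -87 and -46. These matches describe the letters and say nothing of what binds there.

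Slc34a2, the importer, was close to the limit of detection in Pair Vehicle livers and far higher in EtOH Vehicle livers. In Pair Vehicle its rescaled value was 11.1 in library 10, 17.6 in library 12, 1.17 in library 14 and 11.2 in library 16. The value in library 14 rests on 1 read, for which the exact Poisson 95% interval is 0.0297 to 6.54 on the same scale, covering counting error only. In Pair IMC it was 18.3 in library 2, 40.9 in library 4, 32.1 in library 6 and 39.1 in library 8. Each of the 4 Pair IMC libraries lay above each Pair Vehicle library, although the nearest pair, libraries 2 and 12, rest on 18 reads each.

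In EtOH Vehicle the Slc34a2 value was 206.3 in library 1, 130.4 in library 3, 175.5 in library 5 and 101.9 in library 7. These were the 4 highest values of the series, and the highest value elsewhere was 42.2. In EtOH IMC it was 42.2 in library 9, 6.78 in library 11, 20.9 in library 13 and 13.2 in library 15. The EtOH IMC libraries overlapped those of both pair-fed groups, while none reached an EtOH Vehicle library.

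**Figure D1:**
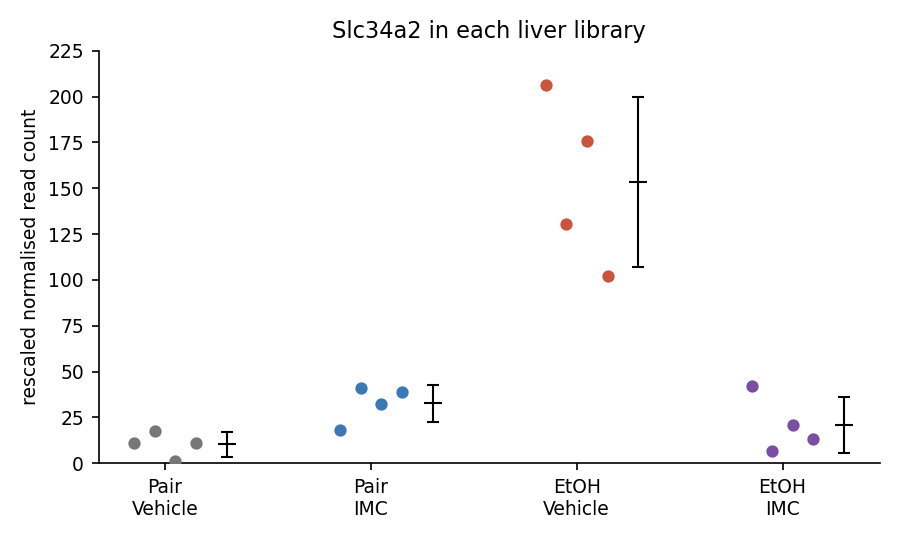
Slc34a2 in each of the 16 liver libraries. The vertical axis is the rescaled normalised read count, from 0, points are libraries in the order of their numbers, and the bar beside each group is its mean with its SD (n = 4). The EtOH Vehicle points lie between 101.9 and 206.3, above all 12 libraries of the other groups.

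The group means of Slc34a2 were 10.3 ± 6.79 in Pair Vehicle, 32.6 ± 10.3 in Pair IMC, 153.5 ± 46.4 in EtOH Vehicle and 20.8 ± 15.4 in EtOH IMC (SD, n = 4 each). In order of level, EtOH Vehicle came first, then Pair IMC, EtOH IMC and Pair Vehicle. Pair IMC and EtOH IMC overlapped, as did EtOH IMC and Pair Vehicle, so only the first place was separated from its neighbour in this order. In bulk liver, more RNA per cell and more cells that make it cannot be told apart.

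On vehicle, Slc34a2 was 14.9-fold higher with ethanol than with pair feeding, a fitted log2 fold change of 4.08 with an SE of 0.56. The fitted changes are differences of mean log2(value + 1), so they differ from the log2 of these ratios of means. For a gene this low the fitted change also depends on the number added. The ethanol change on vehicle was 4.34 with 0.1 added and 3.47 with 5 added. Under IMC the ethanol contrast was in the other direction, at -0.84 (SE 0.56), and the groups overlapped. IMC in ethanol-fed mice went with a value 7.39-fold lower, a log2 fold change of -3.05 (SE 0.56). IMC in pair-fed mice went with a value 3.17-fold higher, a log2 fold change of 1.87 (SE 0.56).

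Leaving out library 14, the Pair Vehicle library with 1 read, lowered the pair-fed IMC change to 1.20 and the ethanol change on vehicle to 3.41. The mean of the other 3 Pair Vehicle libraries was 13.3, which put Pair IMC 2.45-fold and EtOH Vehicle 11.5-fold above it. The IMC effects of the diets differed by -4.92 (SE 0.79) on the log2 scale, ethanol-fed minus pair-fed. This is the lowest value of the 12537 genes tested, and the ethanol change on vehicle is the 2nd highest. Those ranks describe how the gene was picked. Averaged over both treatments, a contrast that does not cross the split of library numbers, the ethanol change of Slc34a2 was 1.62 (SE 0.40). Averaged over both diets, the IMC change was -0.59 (SE 0.40).

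Slc20a1, the PiT-1 importer, was lower in the ethanol-fed groups, with wide spread in the pair-fed ones. In Pair Vehicle it was 462.5 in library 10, 681.2 in library 12, 1189.9 in library 14 and 1144.6 in library 16. In Pair IMC it was 825.6 in library 2, 741.4 in library 4, 1005.5 in library 6 and 467.4 in library 8. Library 10 and library 8 were the lowest of their groups, well under the others in the same group.

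In EtOH Vehicle Slc20a1 was 371.4 in library 1, 567.8 in library 3, 404.5 in library 5 and 677.9 in library 7. In EtOH IMC it was 464.8 in library 9, 567.8 in library 11, 564.6 in library 13 and 431.1 in library 15. Of the 8 pair-fed libraries, 6 were above the highest ethanol-fed one (677.9), yet the ranges overlapped in both ethanol contrasts. The means were 869.5 ± 356 in Pair Vehicle, 760.0 ± 224 in Pair IMC, 505.4 ± 144 in EtOH Vehicle and 507.1 ± 69.6 in EtOH IMC.

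The ethanol change of Slc20a1 was -0.72 on vehicle and -0.54 under IMC (SE 0.27 each, log2 scale), and -0.63 (SE 0.19) averaged over both treatments. The IMC changes were -0.14 in pair-fed and 0.04 in ethanol-fed mice (SE 0.27 each), and both changed sign when single libraries were left out. The order of its levels was Pair Vehicle, Pair IMC, EtOH IMC and EtOH Vehicle, and each neighbouring pair overlapped.

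Slc20a2, the PiT-2 importer, varied least in EtOH Vehicle, most in Pair Vehicle and about equally in Pair IMC and EtOH IMC. In Pair Vehicle it was 989.7 in library 10, 963.0 in library 12, 915.3 in library 14 and 771.9 in library 16. In Pair IMC it was 952.7 in library 2, 841.8 in library 4, 943.4 in library 6 and 963.7 in library 8. These groups lay across each other.

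In EtOH Vehicle Slc20a2 was 1019.9 in library 1, 1004.0 in library 3, 1032.0 in library 5 and 1027.9 in library 7. In EtOH IMC it was 939.0 in library 9, 883.8 in library 11, 1001.8 in library 13 and 897.3 in library 15. The EtOH Vehicle libraries were above all others, but the gap to the highest EtOH IMC library was about 2 units. The coefficient of variation in EtOH Vehicle was 1.21%, under the 3.05% that counting error alone gives at a mean of 1078 reads.

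The means of Slc20a2 were 910.0 ± 97.1 in Pair Vehicle, 925.4 ± 56.4 in Pair IMC, 1021 ± 12.4 in EtOH Vehicle and 930.5 ± 53.0 in EtOH IMC. In order, EtOH Vehicle was followed by EtOH IMC, Pair IMC and Pair Vehicle, and the last 3 overlapped. The log2 fold change was 0.17 for ethanol on vehicle, 0.01 for ethanol under IMC, -0.14 for IMC in ethanol-fed mice and 0.03 for IMC in pair-fed mice (SE 0.08 each). On the values as deposited, where the diets were scaled apart, the ethanol changes were 0.36 and 0.20.

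Xpr1, the exporter, varied little between groups. In Pair Vehicle it was 657.6 in library 10, 643.0 in library 12, 589.1 in library 14 and 596.7 in library 16. In Pair IMC it was 656.8 in library 2, 719.0 in library 4, 751.9 in library 6 and 646.3 in library 8. Pair IMC was shifted upward but overlapped Pair Vehicle.

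In EtOH Vehicle Xpr1 was 608.2 in library 1, 577.4 in library 3, 692.8 in library 5 and 495.3 in library 7. In EtOH IMC it was 667.9 in library 9, 635.6 in library 11, 526.8 in library 13 and 446.3 in library 15. The ethanol-fed libraries reached lower than the pair-fed ones, and 2 Pair IMC libraries (4 and 6) lay above all of them. The means were 621.6 ± 33.8, 693.5 ± 50.5, 593.4 ± 81.6 and 569.1 ± 102 in Pair Vehicle, Pair IMC, EtOH Vehicle and EtOH IMC.

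The order of Xpr1 levels was Pair IMC, Pair Vehicle, EtOH Vehicle and EtOH IMC, with every neighbouring pair overlapping. Its log2 fold changes were 0.16 for IMC in pair-fed mice, -0.07 for IMC in ethanol-fed mice, -0.08 for ethanol on vehicle and -0.30 for ethanol under IMC (SE 0.12 each). On the values as deposited, the ethanol changes were 0.11 and -0.11, so the sign of the first flipped with the scaling.

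**Figure D2:**
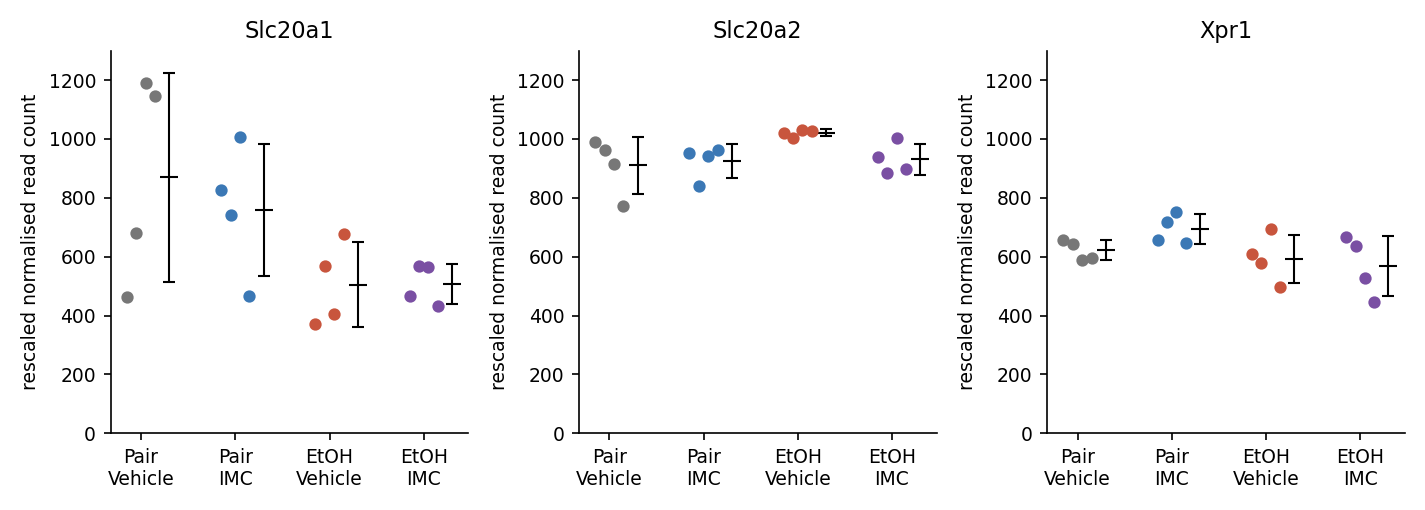
Slc20a1, Slc20a2 and Xpr1 in each of the 16 libraries. The vertical axes are the rescaled normalised read count, from 0 and the same for all 3 genes, points are libraries and the bar beside each group is its mean with its SD (n = 4). Slc20a1 spreads widest, from 371.4 to 1189.9, and the 4 EtOH Vehicle points of Slc20a2 lie within 1004.0 to 1032.0.

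Read side by side, 1 of the 4 members, Slc34a2, was higher with no overlap between the groups for IMC in pair-fed mice, against 7.38% of all genes tested. For IMC in ethanol-fed mice 2 of 4 were separately lower (Slc34a2 and Slc20a2), against 12.9% of genes lower. For ethanol on vehicle 2 of 4 were separately higher (the same 2), against 9.92% higher. For ethanol under IMC there were 0 of 4, against 19.2% in either direction. Since these contrasts entered the choice of the members, nothing is read from the counts. Contrasts that share a group also share its libraries.

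**Figure D3:**
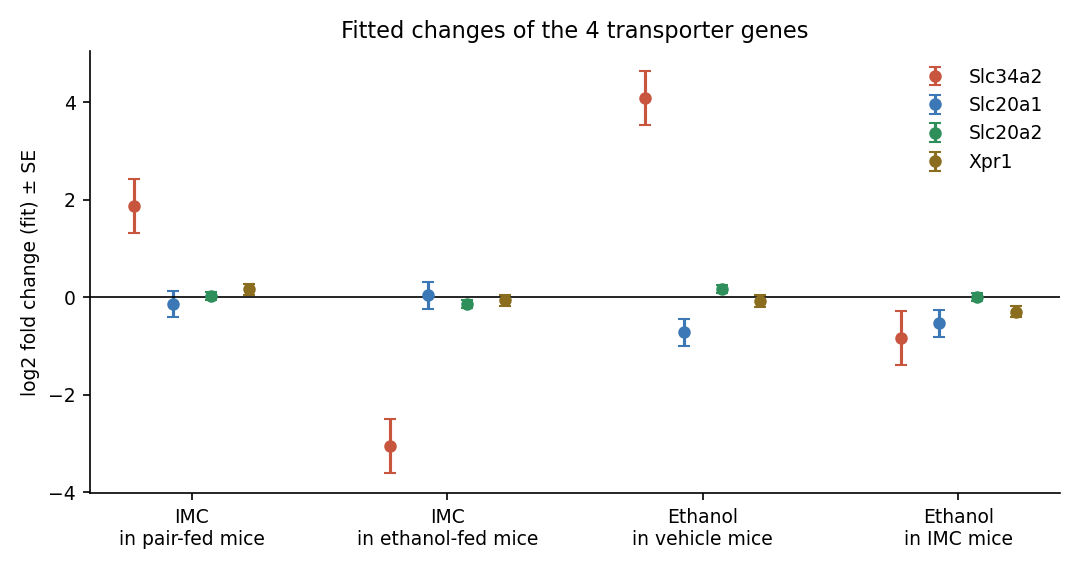
Fitted changes of the 4 genes in the 4 contrasts. The vertical axis is the log2 fold change of the value + 1 and bars are its SE. Slc34a2 ranges from -3.05 to 4.08, while the other members stay between -0.72 and 0.17.

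Per kilobase of the longest principal transcript, the level of Slc34a2 was 2.46 ± 1.63 in Pair Vehicle, against 262.2 ± 107 for Slc20a1, 255.2 ± 27.2 for Slc20a2 and 83.0 ± 4.51 for Xpr1 (SD, n = 4). In EtOH Vehicle the level per kilobase was 36.8 ± 11.1 for Slc34a2, 152.4 ± 43.3 for Slc20a1, 286.3 ± 3.47 for Slc20a2 and 79.2 ± 10.9 for Xpr1. Slc34a2 was thus the lowest member on this scale in every group mean, its peak included. Divided by the length of all exons joined instead, it reached 30.6 ± 9.26 in EtOH Vehicle, near the 33.2 ± 4.57 of Xpr1. The other members of the SLC34 family, Slc34a1 and Slc34a3, both kidney transporters, had at most 1 and 0 reads in any library.

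Over the 16 libraries the members did not follow each other closely. On log2 values, Pearson's r of Slc34a2 was -0.54 with Slc20a1, 0.54 with Slc20a2 and 0.09 with Xpr1. That of Slc20a1 with Slc20a2 was -0.54. These are descriptions over libraries of 4 groups, which share the group differences.

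The 5 genes most like Slc34a2 among those tested, by Pearson's r of log2 values over the 16 libraries, were Xk (0.92), Tsc22d1 (0.87), Ppp1r3b (0.86), G3bp2 (0.84) and Mfap3 (0.84). Ppp1r3b is the liver glycogen-targeting subunit of protein phosphatase 1. Tsc22d1, a leucine zipper protein, had means of 336.9, 376.5, 1022 and 312.7 in Pair Vehicle, Pair IMC, EtOH Vehicle and EtOH IMC. Ppp1r3b had means of 3794, 4920, 7709 and 5099 in the same order. After each group's mean was subtracted, r was 0.79 for Xk, 0.61 for Tsc22d1, 0.65 for Ppp1r3b, 0.72 for G3bp2 and 0.54 for Mfap3. The genes were picked by r over the same libraries, so these values only describe them.

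**Figure D4:**
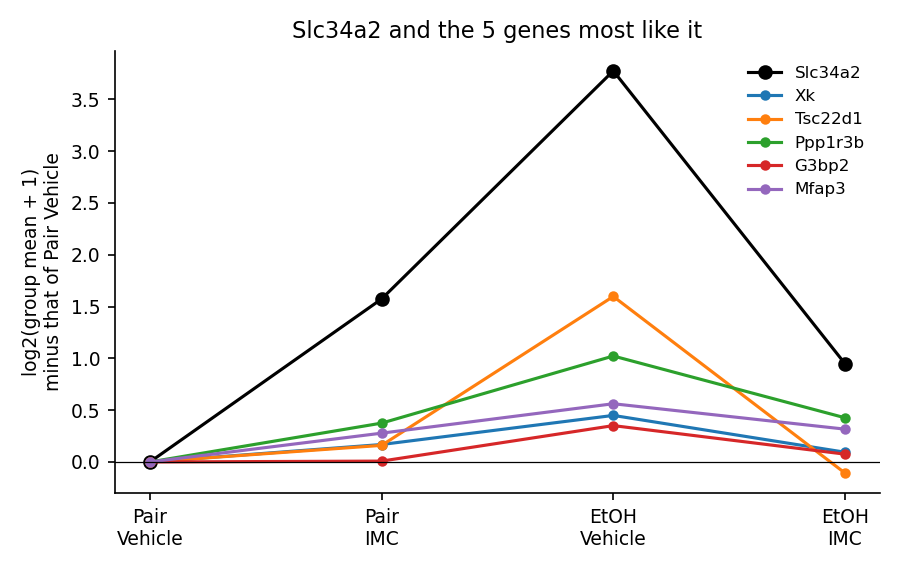
Slc34a2 and the 5 genes most like it over the 16 libraries. The vertical axis is the log2 of the group mean + 1 minus that of Pair Vehicle, by group. All 6 genes are highest in EtOH Vehicle, and Slc34a2 has the widest range.

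For Slc20a1 the closest genes were Jade1 (0.91), P2ry2 (0.89), Tns2 (0.88), Gys2 (0.87), which encodes liver glycogen synthase, and Bnip3 (0.87). After group means were subtracted, their r was 0.79 to 0.90. They were picked by r over the same libraries, so these values only describe them. For Slc20a2 they were Cdk5rap2 (0.87), Cdcp1 (0.86), Btc (0.85) and Mterf2 (0.85). For Xpr1 they were Mob1b (0.87), Prkci (0.85), Cdc73 (0.85), Prpf4b (0.84) and Kmt2d (0.83). No p is attached to any of these.

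Markers of other cell types were read beside Slc34a2, which is also made by epithelia outside the parenchyma. Of 16 bile duct markers, Sctr, the secretin receptor, had at most 3 reads in every library, and the list summed to 1506 to 2120 in Pair Vehicle, 1177 to 1308 in Pair IMC, 1274 to 1762 in EtOH Vehicle and 1091 to 1691 in EtOH IMC. The list was thus no higher in EtOH Vehicle than in Pair Vehicle. Krt19, the duct keratin, had means of 156.0, 33.7, 58.8 and 68.9 in Pair Vehicle, Pair IMC, EtOH Vehicle and EtOH IMC, and Pearson's r with Slc34a2 was -0.47. One list gene, Pkhd1, which encodes fibrocystin, moved with Slc34a2. It rose by 0.36 with ethanol on vehicle (adjusted p = 0.0456, limma) and fell by 0.88 with IMC in ethanol-fed mice (adjusted p = 7.65e-05, limma).

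Of 9 alveolar type II markers, the surfactant genes Sftpb and Sftpc and the defining gene Lamp3 had at most 3 reads in every library. The surfactant genes Sftpa1 and Sftpd were detected, with means of 27.4, 51.7, 10.3 and 27.1 and of 32.4, 32.6, 23.95 and 29.9 in the order of groups used for Krt19. The list summed to 1424 to 1619 in Pair Vehicle and 2038 to 2392 in EtOH Vehicle, nearly all of it from Abca3, a lipid transporter, which rose by 0.57 with ethanol on vehicle (adjusted p = 0.00183, limma). Etv5, a transcription factor gene of the list, rose by 0.79 with ethanol on vehicle (adjusted p = 0.0179, limma) and by 1.44 with ethanol under IMC (adjusted p = 0.000241, limma). Of 10 intestinal markers, Alpi, Lct, Cdh17, Reg3g and Slc15a1 had at most 3 reads in every library and 1 was not analysed here. Fabp2, the intestinal fatty acid binding protein gene, had means of 1007, 540.8, 967.3 and 499.1 in the same order. It fell by 1.40 with IMC in ethanol-fed mice (adjusted p = 0.0121, limma), where Slc34a2 was also lower. Its SD in EtOH IMC was 504.4. The intestinal list, mostly Fabp2, summed to 188 to 338 in libraries 9, 13 and 15. In library 11 it summed to 1263, above the 925 to 1054 of EtOH Vehicle, and that library held the lowest Slc34a2 value of its group. With ethanol on vehicle the log2 change of Fabp2 was -0.06 (adjusted p = 0.940, limma). Vil1 had means of 16.3, 3.56, 6.86 and 5.47. For pancreatic acinar cells, 7 of 10 markers had at most 3 reads, and for kidney proximal tubule 7 of 9. The remaining kidney genes, Lrp2 and Cubn, had at most 15 and 9 reads. With IMC in pair-fed mice, where Slc34a2 was higher, the acinar genes Cela1 and Ctrb1 fell. Their log2 changes were -0.52 (adjusted p = 0.0274, limma) and -3.56 (adjusted p = 0.0265, limma). Cela2a, which did not pass the filter on low values, had means of 0.76 in Pair Vehicle and 10.4 in Pair IMC.

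Stellate cell markers moved with Slc34a2 in 2 of the 4 contrasts. The 8 genes summed to 4874 to 5783 in EtOH Vehicle, above the 3427 to 4664 in Pair Vehicle, the 3497 to 4371 in Pair IMC and the 3205 to 4153 in EtOH IMC. With ethanol on vehicle 3 of 8 rose (Dcn, Pdgfrb and Lrat), and with IMC in ethanol-fed mice 3 of 8 fell (Pdgfrb, Col3a1 and Reln), against 6.33% of all genes that rose and 11.1% that fell in these contrasts. With IMC in pair-fed mice, where Slc34a2 was higher, limma called 0 of 8, against 9.48% of all genes, and their median log2 change was -0.23. With ethanol under IMC, Lrat and Des rose and Reln fell. The Kupffer cell and macrophage list of 8 genes summed to 1960.5 to 5574, 2378 to 3447, 3322 to 4539 and 2473 to 3766 in the same order of groups as for Krt19, and the 7 sinusoidal endothelium genes to 3104 to 3838, 3125 to 4002, 3700 to 4258 and 3147 to 4301. The part of any of these cell types in the Slc34a2 values was not tested.

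**Figure D5:**
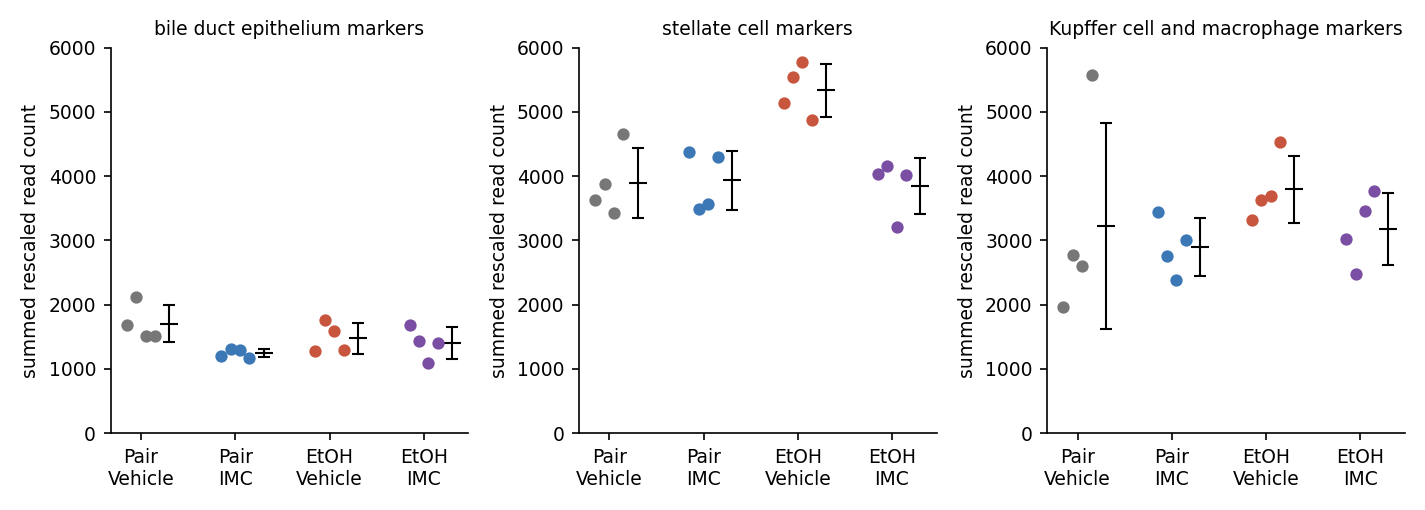
Summed markers of bile duct epithelium (16 genes), stellate cells (8 genes) and Kupffer cells and macrophages (8 genes) in each library. The vertical axes are the summed rescaled normalised read counts, from 0, points are libraries and the bar beside each group is its mean with its SD (n = 4). The stellate sum in EtOH Vehicle, 4874 to 5783, lies above every library of the other groups, while the bile duct sum does not.

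The other genes of phosphate handling were read from 5 lists with 65 genes, of which 64 were in the table (Ankh was not analysed here) and 49 passed the filter on low values. For these, differences were tested with limma and Benjamini-Hochberg adjustment over all 12537 genes. With IMC in pair-fed mice 7 rose and 2 fell, 18.4% of the 49 against 9.48% of all genes tested (4.32% rose and 5.17% fell). With IMC in ethanol-fed mice 8 rose and 7 fell, 30.6% against 21.5% (10.4% and 11.1%). With ethanol on vehicle 7 rose and 4 fell, 22.4% against 11.9% (6.33% and 5.54%). With ethanol under IMC 6 rose and 8 fell, 28.6% against 16.4% (7.86% and 8.57%). Their median log2 change lay between -0.12 and 0.05 in these contrasts, so the lists moved both ways.

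For the difference of the IMC effects between diets, 0 of the 49 passed with limma, against 1.11% of all genes (0.319% and 0.79%). Of them 9 had an unadjusted p under 0.05, a count with no share of all genes beside it, so nothing is read from it. Of the 49, edgeR called 0 and DESeq2 called 1, the scaffold gene Slc9a3r1, where DESeq2 called 338 of all genes tested. Over the 4 contrasts the lists gave 49 calls, of which 21 held in all 16 fits that each left out 1 library. Genes named below held in all of these unless a sentence says otherwise. The counts per list below stand beside the shares of all genes given above for each contrast, and no list was tested as a set.

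Among other phosphate carriers, Slc17a1, Slc17a3 and Slc17a4 belong to the SLC17 family, first described as sodium-phosphate cotransporters and now known to carry urate and other organic anions. Slc17a3 rose with ethanol on vehicle from 1007 ± 144 to 1406 ± 121 (log2 change 0.49, SE 0.12, adjusted p = 0.0144, limma). Slc17a1 fell with ethanol under IMC from 398.9 ± 81.6 to 189.5 ± 44.1 (log2 change -1.08, adjusted p = 0.000526, limma), and Slc17a4 fell by 0.69 (adjusted p = 0.00264, limma). Slc25a3, the mitochondrial phosphate carrier, fell with ethanol on vehicle from 3456 ± 119 to 2695 ± 155 (log2 change -0.36, adjusted p = 0.00373, limma), a call lost on the values as deposited. Slc17a2 was 0.64 higher with IMC in ethanol-fed mice (adjusted p = 0.0262, limma), lost without any 1 of 5 libraries.

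Of 13 genes of this list tested, 1 rose and 0 fell with IMC in pair-fed mice, 1 rose and 1 fell with IMC in ethanol-fed mice, 2 rose and 1 fell with ethanol on vehicle, and 1 rose and 3 fell with ethanol under IMC. The adjusted p of Slc17a1 for IMC in pair-fed mice was 0.0265 in limma, with a log2 change of 0.63, and 4 libraries each ended that call when left out.

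The inositol pyrophosphate enzymes make or break the ligands of Xpr1's SPX domain, and Kidins220 encodes a membrane scaffold that binds Xpr1. Ppip5k2, a kinase of this pathway, rose with IMC in pair-fed mice from 769.0 ± 53.5 to 1080.2 ± 53.5 (log2 change 0.49, SE 0.10, adjusted p = 0.00548, limma). Kidins220 rose in the same contrast from 960.9 ± 72.6 to 1334 ± 117 (log2 change 0.47, adjusted p = 0.00456, limma).

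Itpk1, an inositol phosphate kinase, rose with ethanol on vehicle by 0.63 (adjusted p = 0.00121, limma) and under IMC by 0.50 (adjusted p = 0.00309, limma), and fell with IMC in ethanol-fed mice by 0.41 (adjusted p = 0.00756, limma). Minpp1, which removes phosphates from inositol polyphosphates, fell with ethanol on vehicle by 0.52 (adjusted p = 0.00122, limma). Under IMC it fell by 0.33 (adjusted p = 0.0130, limma), a call lost on the values as deposited. Of the 10 genes tested, 4 rose with IMC in pair-fed mice and 0 fell, 2 rose and 2 fell with IMC in ethanol-fed mice, 2 rose and 2 fell with ethanol on vehicle, and 1 rose and 2 fell with ethanol under IMC.

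The hormones of phosphate balance are made elsewhere, and Fgf23, Kl, Pth, Phex, Cyp27b1 and Cyp24a1 had at most 3 reads in every library. Among their receptors, Pth1r, the parathyroid hormone receptor, fell with IMC in ethanol-fed mice from 112.6 ± 5.71 to 68.8 ± 9.82 (log2 change -0.71, SE 0.13, adjusted p = 0.000998, limma). It also fell with ethanol under IMC by 0.72 (adjusted p = 0.00138, limma), a contrast that shares the EtOH IMC libraries. Fgfr2 fell with ethanol under IMC by 0.49 (adjusted p = 0.0078, limma), lost on the values as deposited. Of the 12 genes tested in this list, 1 rose and 0 fell with IMC in pair-fed mice, 1 rose and 2 fell with IMC in ethanol-fed mice, 0 were called with ethanol on vehicle, and 0 rose and 3 fell with ethanol under IMC (limma).

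Among pyrophosphate and mineralization genes, Alpl, which encodes tissue-nonspecific alkaline phosphatase and releases phosphate outside the cell, rose with ethanol on vehicle from 172.8 ± 74.4 to 363.3 ± 53.3 (log2 change 1.16, SE 0.29, adjusted p = 0.0146, limma). Abcc6, whose transporter is needed for the release of ATP that yields pyrophosphate, fell with IMC in ethanol-fed mice from 2950 ± 255 to 1850 ± 132 (log2 change -0.67, adjusted p = 0.000499, limma). Entpd5, a nucleoside diphosphatase of the endoplasmic reticulum, rose with ethanol under IMC from 3604 ± 419 to 6234 ± 1068 (log2 change 0.78, adjusted p = 0.000622, limma). Of 9 genes tested, 0 rose and 1 fell with IMC in pair-fed mice, 2 rose and 2 fell with IMC in ethanol-fed mice, 2 rose and 1 fell with ethanol on vehicle, and 2 rose and 0 fell with ethanol under IMC.

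PDZ scaffolds hold sodium-phosphate cotransporters at the membrane. Slc9a3r1, which encodes NHERF1, fell with IMC in pair-fed mice from 1680 ± 283 to 1042 ± 79.0 (log2 change -0.68, SE 0.10, adjusted p = 0.000927, limma). It rose with ethanol under IMC from that level to 1521 ± 97.9 (log2 change 0.55, adjusted p = 0.00226, limma). Shank2, another PDZ scaffold, rose with ethanol on vehicle from 285.8 ± 78.2 to 539.0 ± 94.6 (log2 change 0.94, adjusted p = 0.00466, limma). The kinase gene Sgk1 was 0.84 higher with IMC in ethanol-fed mice (adjusted p = 0.0163, limma) and 0.88 higher with ethanol under IMC (adjusted p = 0.0161, limma), each lost without 1 of 2 libraries. Of the 5 genes tested, 1 rose and 1 fell with IMC in pair-fed mice, 2 rose and 0 fell with IMC in ethanol-fed mice, 1 rose and 0 fell with ethanol on vehicle, and 2 rose and 0 fell with ethanol under IMC.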

How the data were processed

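Liver RNA of 16 mice was sequenced from directional libraries, which the labels give as paired-end and the methods as single-end. Per the labels, the authors used Trim Galore, FastQC, STAR (mm10) and edgeR; the counting tool is not given in the sources used here. The deposited values (signal) are gene read counts that the authors divided by a size factor per library, on a separate scale in each diet: in every library 100% of values lay within 0.01 of whole reads. The 27212 rows were reduced to 24082 Ensembl IDs (430 IDs had several rows, with equal values). All 16 libraries were then rescaled by a median ratio over 13121 genes (factors 0.934 to 1.07), which moved the median ethanol minus pair difference from 0.19 to -0.0027 on the log2 scale.

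Of all genes, 12537 had 4 or more libraries at or above a value of 10 and were tested with limma 3.58.1 in R 4.3.3 on log2(value + 1), with a mean per group and a mean-variance trend, two-sided, Benjamini-Hochberg adjusted p under 0.05. The rescaled values are no counts, so edgeR 4.0.16 and DESeq2 1.42.0, run on the recovered whole reads, were alternatives. The fits were tested on simulated data. Library pairs of a group differed beyond sampling noise (chi-square per gene 5.60 to 44.0), so none was counted as 1. The p-values measure the spread between mice. Alternatives also changed the scaling, the pseudocount and the filter, and left out each library.

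The members and lists were chosen with earlier results of these data known. Named list genes are at most the 2 with the smallest p in each direction, list and contrast, and like genes the 5 with the highest r per member, of which 1 is not reported here. Promoters were read from RefSeq, with 3 of 4 members matched.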

Additional observations from a re-analysis of the deposited data

Results flagged for a closer look

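The IMC effects on Slc34a2 lay in opposite directions in the 2 diets. In pair-fed mice each of the 4 IMC libraries was above each vehicle library, and in ethanol-fed mice each was below, and the difference of the 2 log2 effects was -4.92. This difference was not tested, because the gene was chosen with these effects known, and it equals the split of library numbers 1 to 8 against 9 to 16.

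In Pair IMC, Slc20a2 in library 4 (841.8) lay apart from the other 3 libraries (943.4 to 963.7). The gap to the nearest of them was 0.833 of the group's whole range, just over Dixon's 95% limit for 4 samples. Chance alone gives such a gap in about 1 of 20 groups, and 16 groups were examined. Without that library the IMC change of Slc20a2 in pair-fed mice was 0.07 in place of 0.03 (log2).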

How the results depend on the processing

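No paired analysis was possible because the groups share no replicate numbers. Of the members' log2 fold changes, those of Slc34a2 kept their direction under each alternative and each library left out, between 1.20 and 2.23 for IMC in pair-fed mice, -3.47 and -2.65 for IMC in ethanol-fed mice, 3.41 and 4.44 for ethanol on vehicle, and -5.34 and -4.15 for the difference of the IMC effects. A filter at a mean of at least 100 left Slc34a2 out of the fit. For ethanol under IMC its changes lay between -1.26 and -0.44, with 2 libraries at the ends, 9 and 11. On the values as deposited, the ethanol changes of Slc20a2 were 0.36 on vehicle and 0.20 under IMC, and those of Xpr1 were 0.11 and -0.11; the deposited scale differs between diets by construction.

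The counts of genes called moved more. For IMC in pair-fed mice, using only the libraries compared gave 691 genes and 5 phosphate pathway genes, in place of 1189 and 9. For ethanol, the values as deposited gave 3000 genes on vehicle and 3624 under IMC, in place of 1488 and 2060, and edgeR without library 15, an alternative chosen after seeing the data because its whole reads are the least secure, gave 1352 under IMC. For the difference of the IMC effects, in place of 139, no filter on low values gave 80, no mean-variance trend 82, edgeR without library 15 gave 72 and DESeq2 338, and DESeq2 called 1 phosphate pathway gene in place of 0. That difference needs all 4 groups, so it has no fit on fewer. The cause was not tested.

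Leaving out 1 library, IMC in pair-fed mice gave 537 to 1443 genes and 3 to 10 pathway genes, the lowest without library 4 (543 without library 6; 4 pathway genes without library 6 or 10). IMC in ethanol-fed mice gave 1987 to 2823 genes and 8 to 16 pathway genes (8 without library 7 or 11, 9 without 1, 5 or 13). Ethanol on vehicle gave 803 to 1595 genes and 7 to 12 pathway genes, the lowest without library 5 (974 genes without library 14). Ethanol under IMC gave 1368 to 2213 genes and 10 to 16 pathway genes, the lowest without library 15. The difference gave 54 to 164 genes, the lowest without library 5, and was under 139 by more than 1.5 times without any 1 of 11 libraries; it gave 0 pathway genes each time. Of 45 named pathway calls, 20 held in all 16 of these fits and none changed direction. At 1 to 18 reads in Pair Vehicle, the depth limits the size of the Slc34a2 change in contrasts with that group.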
